A study of Mus musculus with 10 samples.

Results

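The SLC13 genes of the liver were followed in all 10 deposited liver libraries, gene by gene and library by library. The 4 members are Slc13a2, Slc13a3, Slc13a4 and Slc13a5, taken by gene name from a table of 55487 genes, of which 15894 passed the filter on low counts and were tested. All 4 members passed that filter. One group (LKO, Arg2LKO in the labels) lacked Arg2, the mitochondrial arginase, in hepatocytes, and the other (Flox) was its Arg2fl/fl littermates. Mice of both groups were 22 months old, of strain C57B/6J as the labels spell it, were housed together and ate normal chow. The Cre line behind the deletion is not given in the sources used here, nor whether each library is 1 mouse, so the spread between libraries may be partly technical. There were 5 libraries in each group.

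SLC13 proteins are sodium-coupled carriers of the plasma membrane. They use the inward sodium gradient to bring anions into the cell against their own gradient. Slc13a5 (also called NaCT, the mammalian relative of the fly gene Indy) imports citrate from the blood into hepatocytes, where citrate feeds fatty acid and cholesterol synthesis. Slc13a3 (NaDC3) is the high-affinity and Slc13a2 (NaDC1) the low-affinity carrier of succinate, 2-oxoglutarate and other dicarboxylates, and both are best known from the kidney tubule. Slc13a4, like its relative Slc13a1, carries sulfate, and is best known from placenta and brain.

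The family was chosen by measured values: the LKO against Flox difference of these same libraries, in which an earlier look had found Slc13a3 lower in LKO. All differences between LKO and Flox within the family are therefore descriptions and carry no test. Levels are CPM, counts scaled to a common library size with TMM factors, and log2 fold changes are LKO over Flox with a standard error (SE) from edgeR's quasi-likelihood fit.

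LKO libraries held 43331354 to 53891438 gene counts and Flox libraries 44926666 to 54951415. Arg2 itself had 0 to 6 counts in each LKO library and 0 to 5 in each Flox library, too few to check the deletion. The acute phase response, the burst of secreted proteins that liver makes under inflammation, differed widely between the libraries. Its score, the mean log2 CPM of 26 acute phase genes, was 6.95 to 8.60 in LKO, and it was 10.2, 11 and 9.36 in Flox 2, 3 and 4 but 7.67 and 7.13 in Flox 1 and 5. The serum amyloid gene Saa2, which has a near-identical copy in Saa1, ranged from 12.1 to 248 CPM in LKO and reached 7476, 17180 and 1874 CPM in Flox 2, 3 and 4, against 37.8 and 33.3 CPM in Flox 1 and 5. Values with and without these Flox libraries are given for each member.

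Slc13a3 was the most abundant member in every library. Its gene (ENSMUSG00000018459) lies on the minus strand of chromosome 2, from 165405028 to 165473230 (GRCm38, GENCODE M21). In LKO livers Slc13a3 stood at 11.5, 22.96, 12.0, 16.1 and 31.2 CPM in columns 1 to 5. In Flox livers it stood at 28.8, 56.8, 112.6, 72.6 and 28.0 CPM in libraries 1 to 5. Of the LKO libraries 4 lay below all Flox libraries, while LKO 5 lay just above Flox 1 and 5, so the groups overlapped. The means were 18.8 ± 8.3 CPM in LKO and 59.8 ± 35.1 CPM in Flox (SD, n = 5 each). The log2 fold change was -1.67 ± 0.45 (SE). Without Flox 3, the highest library, the Flox mean was 46.5 CPM and the log2 fold change -1.31. Without Flox 2 and 3 it was -1.21, and without Flox 2, 3 and 4 it was -0.59 ± 0.38.

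Slc13a5, the citrate carrier, was high in 3 Flox libraries and low in the other two and in LKO. Its gene (ENSMUSG00000020805) lies on the minus strand of chromosome 11, from 72241989 to 72267222. LKO livers had 0.310, 1.54, 1.92, 1.62 and 1.18 CPM of Slc13a5 in columns 1 to 5, from 14, 73, 91, 69 and 63 reads. Flox livers had 1.09, 8.78, 10.3, 6.82 and 0.950 CPM in libraries 1 to 5, from 56, 434, 470, 391 and 52 reads. Flox 2, 3 and 4 were above every LKO library, whereas Flox 1 and 5 sat among the LKO values. The means were 1.31 ± 0.62 CPM in LKO and 5.58 ± 4.34 CPM in Flox, with a log2 fold change of -2.08 ± 0.73. Without Flox 2 and 3 it was -1.18, and without Flox 2, 3 and 4 its sign turned, to 0.37 ± 0.53.

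Slc13a2 was higher in LKO than in Flox. Its gene (ENSMUSG00000001095) lies further along the minus strand of chromosome 11, from 78397087 to 78422217. LKO livers held 4.48, 1.58, 2.75, 2.23 and 1.97 CPM of Slc13a2, from 202, 75, 130, 95 and 105 reads. Flox livers held 1.42, 0.344, 0.349, 1.01 and 1.57 CPM, from 73, 17, 16, 58 and 86 reads. The groups did not overlap, by a narrow margin: the lowest LKO library had 1.58 CPM and the highest Flox library 1.57. Flox 2 and 3, among the libraries with the most Slc13a5, had the least Slc13a2. The means were 2.60 ± 1.13 CPM in LKO and 0.940 ± 0.579 CPM in Flox, a log2 fold change of 1.46 ± 0.45. Without LKO 1 the LKO mean was 2.13 CPM and the log2 fold change 1.17. It was 0.96 without Flox 2 and 3 and 0.81 ± 0.39 without Flox 2, 3 and 4.

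Slc13a4, the sulfate carrier, was scarce and showed no steady direction. Its gene (ENSMUSG00000029843) lies on the minus strand of chromosome 6, from 35267957 to 35308131. It had 0.865, 0.507, 0.233, 0.563 and 1.65 CPM in LKO columns 1 to 5, and 1.36, 0.162, 0.655, 0.314 and 1.13 CPM in Flox libraries 1 to 5, from 8 to 88 reads per library. The groups overlapped over nearly their whole range. The means were 0.763 ± 0.543 CPM in LKO and 0.725 ± 0.516 CPM in Flox, and the log2 fold change of 0.08 ± 0.60 turned negative when Flox 2, Flox 4 or LKO 5 was left out (-0.17, -0.12 and -0.41). It was -0.28 without Flox 2 and 3 and -0.69 without Flox 2, 3 and 4. The other sulfate carrier, Slc13a1, had at most 2 reads in any library of either group and was not tested.

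**Figure D1:**
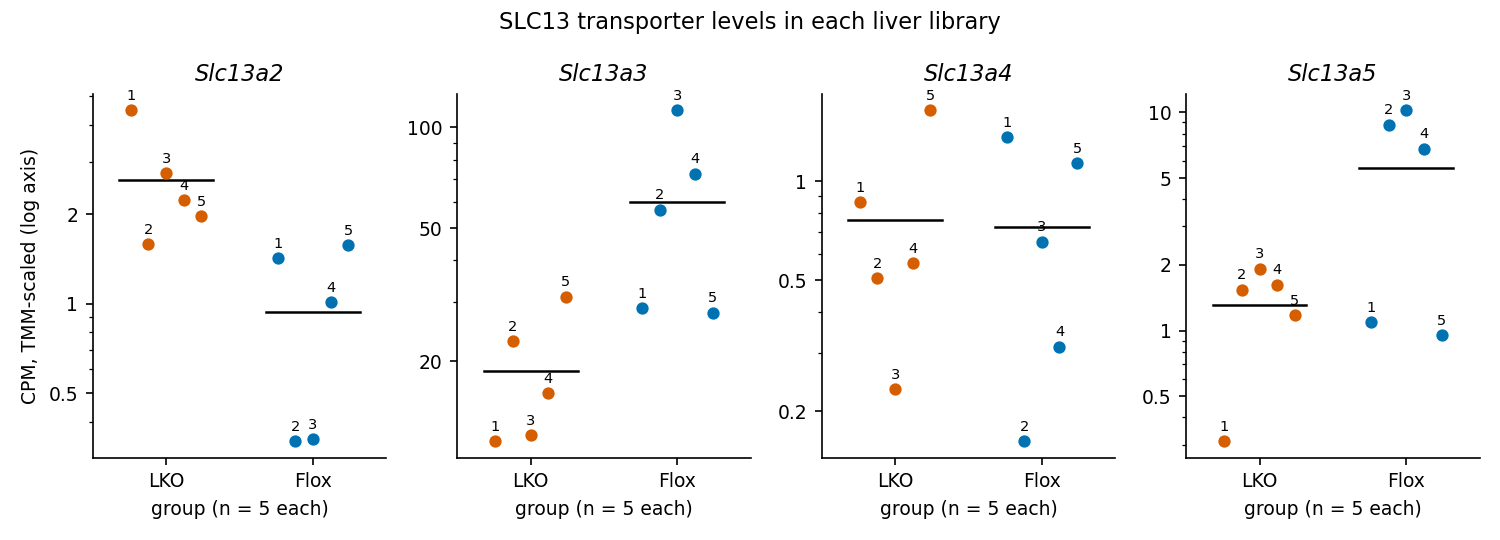
CPM (log axis) of each SLC13 member in the 5 LKO libraries (left, orange) and 5 Flox libraries (right, blue), with library numbers beside the points and a bar at each group's mean. Slc13a3 and Slc13a5 are highest in Flox 2, 3 and 4, Slc13a2 is lowest in Flox 2 and 3, and the Slc13a4 groups overlap.

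Across the whole table, edgeR's quasi-likelihood test with Benjamini-Hochberg adjustment called 0 of 15894 genes at an adjusted p under 0.05 (0% of all tested), and 0 of the 4 members were among them. At an unadjusted p under 0.05 it counted 3 members, where 7.51% of all tested genes (1193) passed, and limma-voom called 0 genes. DESeq2, run on the genes that passed the same filter, called 0.134% of the 8184 genes it adjusted over, with Slc13a3 among its 11 calls (adjusted p = 0.0305, on a background of 0.0733% called lower and 0.0611% called higher), and gave the other members no adjusted p. Run on all genes with a count instead, DESeq2 called 0 genes, and Slc13a3 had an adjusted p of 0.0741. Groups that did not overlap were found for 1 member, Slc13a2, and for 0.906% of all tested genes. The members were picked with this contrast in view, so nothing is read from these counts.

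The 4 members had a larger spread between libraries of one group than most tested genes. The within-group SD of log2 CPM was 1.38 for Slc13a5, 1.08 for Slc13a4, 0.82 for Slc13a2 and 0.75 for Slc13a3, beside a median of 0.29 over all tested genes. These SDs were larger than those of 98.8%, 96.8%, 91.9% and 89.6% of the tested genes. That comparison was over genes of all levels, with no matching on level, and Slc13a4, Slc13a2 and Slc13a5 stood at the 18.1, 29.5 and 38.1 percentiles of average level. Slc13a5 ranged 10.8-fold between the highest and lowest Flox libraries and 6.2-fold within LKO, where LKO 1 was lowest with 14 reads.

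**Figure D2:**
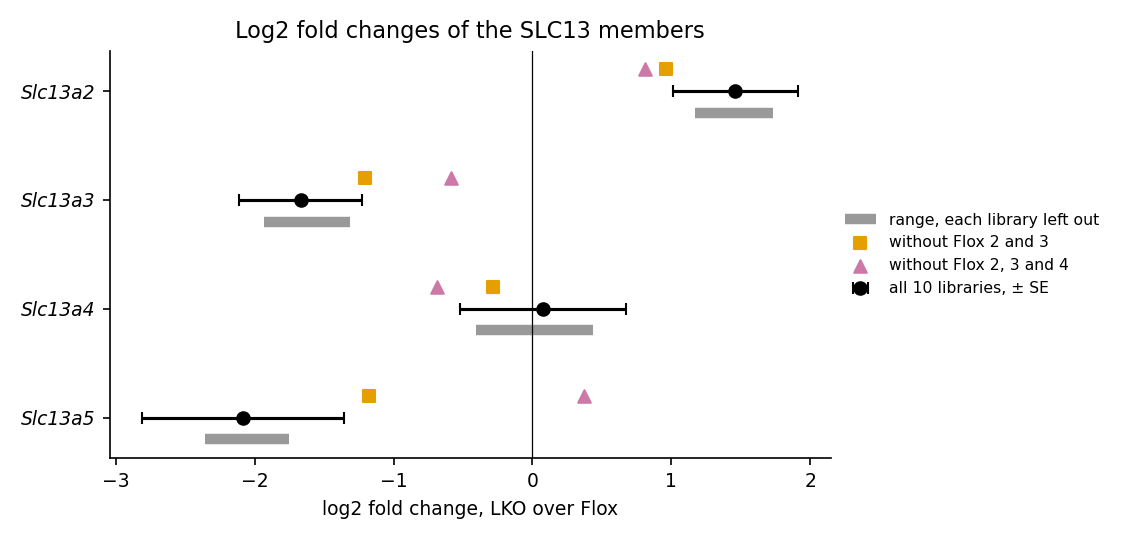
Log2 fold change of each member, LKO over Flox, with SE (black), the range when each of the 10 libraries is left out (grey), and the values without Flox 2 and 3 (square) and without Flox 2, 3 and 4 (triangle). Slc13a2 stays above 0 and Slc13a3 below 0 in every case plotted, while Slc13a5 passes to 0.37 without the 3 Flox libraries and Slc13a4 lies on both sides of 0.

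Levels of different genes were compared per length, as RPKM, which is CPM per kilobase of exon, with exon lengths from GENCODE M21. Slc13a3 averaged 3.597 ± 1.595 RPKM in LKO and 11.5 ± 6.7 RPKM in Flox. Slc13a2 averaged 1.08 ± 0.47 RPKM in LKO and 0.390 ± 0.240 RPKM in Flox. Slc13a5 averaged 0.266 ± 0.126 RPKM in LKO and 1.13 ± 0.88 RPKM in Flox, and Slc13a4 0.169 ± 0.120 RPKM in LKO and 0.160 ± 0.114 RPKM in Flox. Slc13a3 ranked first in 10 of 10 libraries. The second place went to Slc13a2 in 7 libraries, the 5 LKO libraries with Flox 1 and 5, and to Slc13a5 in Flox 2, 3 and 4. In 4 libraries Slc13a4 stood above Slc13a5, and these neighbours in the order did not differ beyond their spread in LKO. The RPKM of Slc13a5 was 12.5, 14.3 and 3.29 times that of Slc13a2 in Flox 2, 3 and 4. It was 0.37 and 0.30 times that of Slc13a2 in Flox 1 and 5.

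The family's make-up differed between the libraries along with its sum. Summed over the 4 members, the level was 3.89 to 7.40 RPKM in LKO and 6.45 to 23.97 RPKM in Flox. Slc13a2 gave 11.01 to 42.97% of that sum in LKO livers and 0.604 to 10.1% in Flox livers. The low-affinity carrier was nearest to the high-affinity one in LKO 1, where the RPKM of Slc13a3 was 1.19 times that of Slc13a2, and farthest from it in Flox 3, where it was 149 times. This ratio was 1.19 to 7.34 in LKO and 8.23 to 149 in Flox, with Flox 5 (8.23) and Flox 1 (9.38) closest to LKO 5 (7.34). The groups did not overlap in this ratio, but they already did not overlap in Slc13a2 alone. The family was also chosen by the difference in Slc13a3, so nothing is read from this separation.

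**Figure D3:**
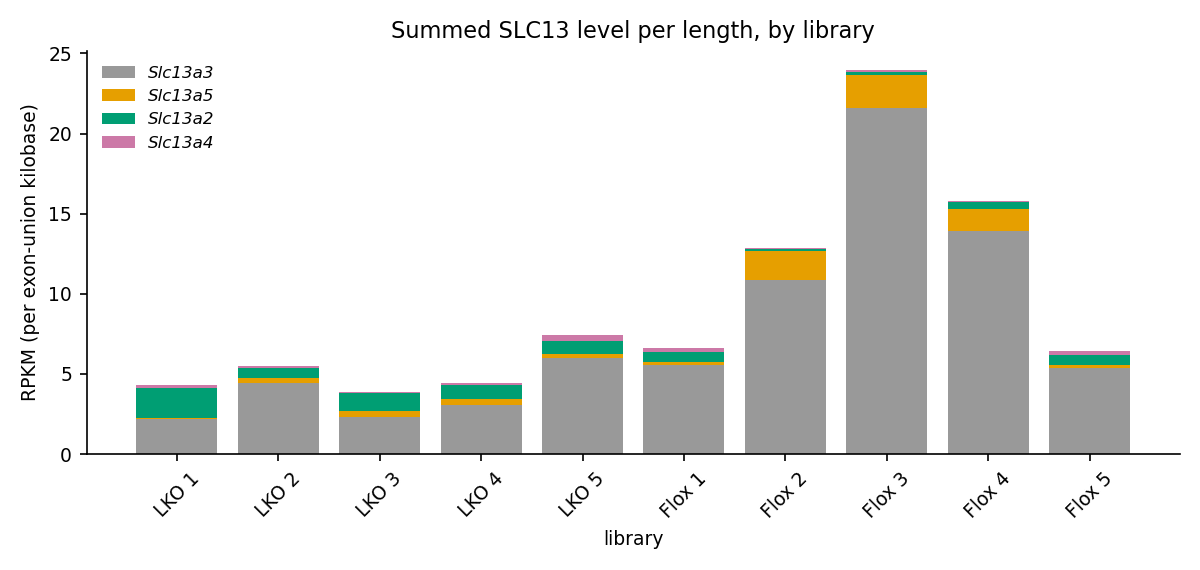
Summed level of the 4 members per length (RPKM, bars from 0) in each library, LKO at the left and Flox at the right, split by member. Slc13a3 (grey) is the largest piece everywhere, Slc13a2 (green) is a visible share in the LKO bars, and Slc13a5 (yellow) is a visible share in Flox 2, 3 and 4.

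In Flox, Slc13a3 and Slc13a5 were both high in libraries 2, 3 and 4, where Slc13a2 was low. In LKO 2 to 5 this did not hold: there Slc13a3 and Slc13a5 ran in opposite order, with Slc13a3 highest and Slc13a5 lowest in LKO 5. After each group's mean was subtracted, Pearson's r of log2 CPM over the 10 libraries was 0.748 between Slc13a3 and Slc13a5 (Spearman's rho 0.697), -0.777 between Slc13a2 and Slc13a3 (rho -0.745) and -0.847 between Slc13a2 and Slc13a5 (rho -0.758). Slc13a4 had r of 0.442 with Slc13a2, -0.121 with Slc13a3 and -0.685 with Slc13a5. Without Flox 2 and 3 the first 3 values were 0.656, -0.791 and -0.752. These are descriptions of 10 libraries that share 1 tissue and 1 scaling, and Slc13a5 falls into separate sets of libraries, so no p is given. The pooled values do not describe LKO 2 to 5.

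The acute phase score set apart the same Flox libraries. Slc13a5 was high in the 3 libraries with the highest scores, Flox 3, 2 and 4. At the other end, LKO 1 had the lowest score (6.95), the least Slc13a5 (0.310 CPM) and the most Slc13a2 (4.48 CPM). Neither Slc13a3 nor Slc13a5 followed the order of the score through all LKO libraries. LKO 2, with the highest LKO score (8.60), had 22.96 CPM of Slc13a3, below the 31.2 CPM of LKO 5 at a score of 7.51. It had 1.54 CPM of Slc13a5, below the 1.925 CPM of LKO 3 at a score of 7.955. The part of the acute phase in these differences was not tested.

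**Figure D4:**
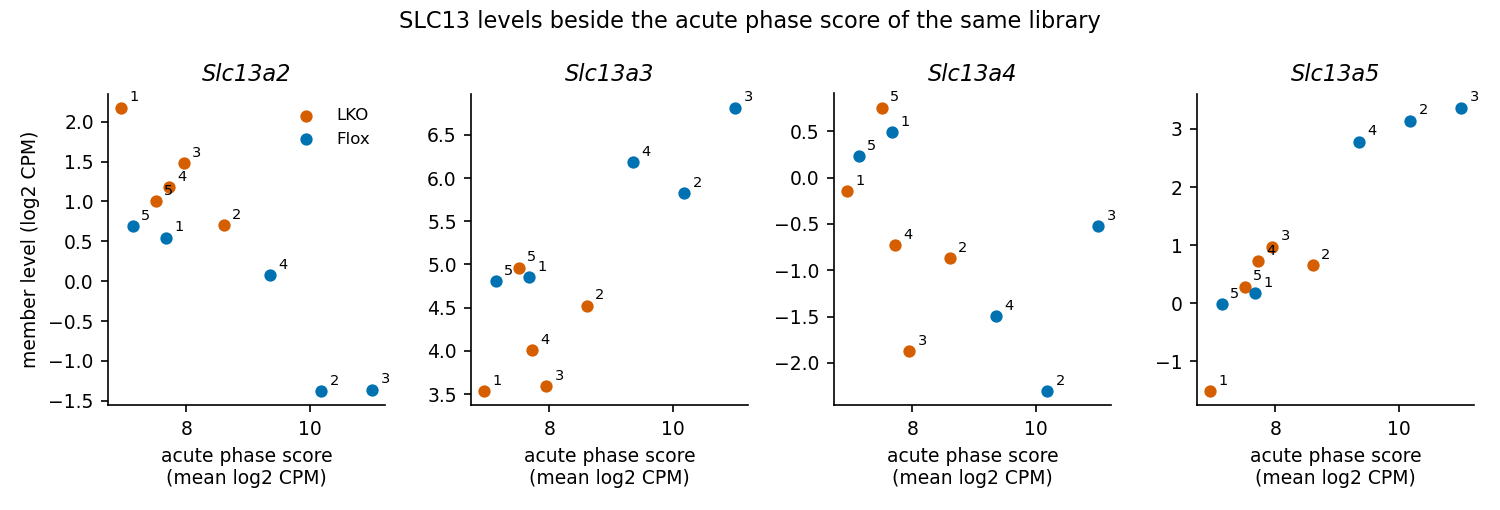
Log2 CPM of each member (vertical) against the acute phase score of the same library (horizontal, mean log2 CPM of 26 genes), LKO in orange and Flox in blue with library numbers. Flox 2, 3 and 4 lie at the right with high Slc13a5 and Slc13a3, and Slc13a2 is lowest in Flox 2 and 3.

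Because Slc13a3 and Slc13a5 were high in the same Flox libraries and Slc13a2 was low there, the bases just before their transcription starts are shown for comparison. The sequences are the 250 bases upstream of the RefSeq starts (GRCm38.p6, all on the minus strand, written 5′ to 3′), with capitals marking a searched motif. Slc13a5 has 2 RefSeq starts, of which the one further upstream is given first. The windows are chr2:165473198-165473447 for Slc13a3, chr11:72267162-72267411 and chr11:72266605-72266854 for Slc13a5, and chr11:78422235-78422484 for Slc13a2.
Slc13a3: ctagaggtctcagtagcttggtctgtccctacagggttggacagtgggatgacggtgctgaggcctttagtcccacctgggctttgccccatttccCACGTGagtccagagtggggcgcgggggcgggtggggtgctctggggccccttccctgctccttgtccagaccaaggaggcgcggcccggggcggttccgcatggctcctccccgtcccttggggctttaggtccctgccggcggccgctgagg
Slc13a5, upstream start: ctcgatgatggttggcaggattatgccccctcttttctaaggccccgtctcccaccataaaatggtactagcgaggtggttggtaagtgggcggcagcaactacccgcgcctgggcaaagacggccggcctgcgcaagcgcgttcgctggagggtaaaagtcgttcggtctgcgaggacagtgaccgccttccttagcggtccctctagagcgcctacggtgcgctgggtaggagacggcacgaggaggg
Slc13a5, downstream start: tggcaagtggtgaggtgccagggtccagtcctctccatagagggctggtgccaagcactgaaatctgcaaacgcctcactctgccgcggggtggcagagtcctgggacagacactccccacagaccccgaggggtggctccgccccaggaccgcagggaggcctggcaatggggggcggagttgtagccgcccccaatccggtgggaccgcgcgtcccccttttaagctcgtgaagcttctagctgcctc
Slc13a2: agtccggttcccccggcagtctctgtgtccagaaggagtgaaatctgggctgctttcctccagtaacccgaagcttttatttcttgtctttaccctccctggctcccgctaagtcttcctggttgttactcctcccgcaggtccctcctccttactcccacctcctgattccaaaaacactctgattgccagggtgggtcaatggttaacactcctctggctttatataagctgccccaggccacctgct
These windows were searched on both strands for TTCNNNGAA, the palindrome bound by STAT factors, TTGCNNAA, a form of the C/EBP site, GCGTG, the core bound by the dioxin receptor AHR with ARNT, and CACGTG, the E-box of clock and MYC-family factors. The single match was the E-box of Slc13a3, which starts 154 bases before the transcription start and is present in 6.02% of 32851 upstream windows of mouse genes. TTCNNNGAA was present in 7.02% of those windows, TTGCNNAA in 9.56% and GCGTG in 28.2%, and no match to any of them lay in the windows of the 4 members. The Slc13a3 window was the richest in G and C, at 67.6%, followed by the Slc13a5 windows at 65.6% (downstream) and 61.6% (upstream) and Slc13a2 at 53.6%, beside a median of 52.4% over all windows. A match or its lack in these letters says nothing of binding.

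The tested neighbours of Slc13a2, Slc13a3 and Slc13a5 had smaller log2 fold changes in size than the member beside them. Foxn1, on the left of Slc13a2, had at most 0.136 CPM in any library and was not tested. The neighbours of Slc13a5, Med31 (2.57 ± 0.34 CPM in LKO and 2.79 ± 0.30 CPM in Flox) and the interferon-induced Xaf1 (6.52 ± 3.45 CPM in LKO and 11.6 ± 4.7 CPM in Flox), had log2 fold changes of -0.12 and -0.83. On the right of Slc13a2, the folate transporter gene Slc46a1 stood at 44.6 ± 4.0 CPM in LKO and 47.6 ± 2.3 CPM in Flox. Beside Slc13a3, Ocstamp had 1.16 ± 0.36 CPM in LKO and 2.03 ± 0.39 CPM in Flox, and Trp53rka 4.71 ± 0.49 CPM in LKO and 5.65 ± 1.51 CPM in Flox. None of the tested neighbours passed edgeR's quasi-likelihood test over all genes. An antisense gene overlaps each of Slc13a2 and Slc13a3 and a noncoding one overlaps Slc13a5, and whether the counting used strand is not given, but these 3 genes had at most 5 reads in any library.

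The genes whose profile was most like that of Slc13a5 were then sought among 10907 tested genes, by Pearson's r over the 10 libraries after each group's mean was subtracted. They were Slc37a1, a sugar phosphate carrier of the endoplasmic reticulum (r = 0.978), C4a, a complement gene whose reads are uncertain because of a near-identical copy (0.975), Cyb561 (0.972), Socs3, the feedback inhibitor of cytokine signalling through JAK and STAT (0.963), and Trim47 (0.960). Socs3 had 2.40, 16.9, 11.4, 15.9 and 5.02 CPM in LKO columns 1 to 5, against 2.80, 43.9, 63.3, 23.6 and 3.51 CPM in Flox libraries 1 to 5. Like Slc13a5 it was lowest in LKO 1 and highest in Flox 2, 3 and 4. Without Flox 5 and LKO 1, the 2 libraries in which Slc13a5 lay farthest from its group mean, the r of Socs3 was 0.952. Over all 10 libraries its Spearman's rho with Slc13a5 was lower, at 0.855. Most opposite were Hibadh, an enzyme of valine breakdown (-0.983), Xrcc3, a DNA repair gene (-0.982), and Hsd17b12, an enzyme of fatty acid elongation (-0.982).

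The closest profiles to Slc13a3 were other genes. They were Stk10 (r = 0.947), Grn, which encodes progranulin of the lysosome and is abundant in macrophages (0.943), Tlnrd1 (0.939), Zfp560 (0.920) and Plekho1 (0.919). Grn had 140.0 to 196 CPM in LKO, and 175, 246, 347, 260 and 180 CPM in Flox libraries 1 to 5. As with Slc13a3, LKO 5 was the highest LKO library and Flox 3 the highest of all. The most opposite were Camsap3, a microtubule protein (-0.979), Gm12718 (-0.953), and Otc, the ornithine carbamoyltransferase of the urea cycle (-0.950). Otc had 485, 392, 454, 427 and 375 CPM in LKO and 382, 294, 215, 298 and 380 CPM in Flox, so that the liver with the most Slc13a3 had the least Otc.

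Slc13a2 was most like Ergic1 (0.989), Prkra (0.985), Nr6a1, an orphan nuclear receptor (0.982), Slc6a13, a carrier of GABA and taurine (0.964), and Car14, a membrane carbonic anhydrase (0.954). Car14 had 20.8 to 36.6 CPM in LKO, and 22.8, 5.10, 4.54, 17.1 and 22.5 CPM in Flox libraries 1 to 5, with the dip in Flox 2 and 3 that Slc13a2 shows. Rpain (-0.974), Sh3yl1 (-0.961) and Myg1 (-0.959) were most opposite. Slc13a4 was most like Cep295 (0.956), the fatty acid oxidation enzyme Hadh (0.954), the mitochondrial thioesterase Acot2 (0.949), the galectin Lgals1 (0.947) and the organic cation carrier Slc22a3 (0.945), and most opposite to Txndc5 (-0.968), Gtpbp3 (-0.958) and Rpl6l (-0.957). The highest r among many genes is large by selection, and these values are a description with no p.

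Other carriers of organic anions and sulfate at the cell surface were examined next. Of 13 listed genes 10 were tested, 0 passed edgeR's quasi-likelihood test in either direction, and their median log2 fold change was 0.07, beside -0.0081 for all tested genes. Slc26a1, the sulfate exchanger of the hepatocyte's sinusoidal side, stood at 207 ± 18.4 CPM in LKO and 180.3 ± 58.7 CPM in Flox. The lactate exporter Slc16a3, at 0.420 ± 0.206 CPM in LKO and 1.19 ± 1.21 CPM in Flox, had the largest difference of the list (log2 fold change -1.48 ± 0.59, adjusted p = 0.652 by edgeR), with Flox 3 at 3.32 CPM. The bile acid carrier Slc10a1 and the organic anion carrier Slco1b2 stood at 594 ± 165 and 656 ± 102 CPM in LKO, and at 442 ± 226 and 594 ± 74.2 CPM in Flox.

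Inside the cell, 6 carriers move citrate and dicarboxylates across the mitochondrial membrane. All 6 were tested, 0 passed edgeR's quasi-likelihood test in either direction, and their median log2 fold change was 0.17. Slc25a1, the citrate carrier that supplies the cytosol from the mitochondrion, stood at 367 ± 62.4 CPM in LKO and 343 ± 74.6 CPM in Flox (log2 fold change 0.10 ± 0.17). Slc25a10, the dicarboxylate carrier, had 311, 169, 177, 160 and 346 CPM in LKO columns 1 to 5, and 295, 103, 120, 154 and 296 CPM in Flox libraries 1 to 5. Its low Flox libraries were 2, 3 and 4, where Slc13a3 and Slc13a5 were high.

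The 18 enzymes and subunits of the TCA cycle, which make and use citrate, succinate and 2-oxoglutarate, were all tested, and 0 passed in either direction. Their median log2 fold change was 0.17, beside -0.0081 for all tested genes, with 18 of 18 values above 0. The mean log2 CPM of the list was 7.11 to 7.42 in LKO. Flox 1 and 5, at 7.30 and 7.33, lay within that range, and Flox 2, 3 and 4, at 7.04, 6.86 and 6.94, lay below it. Sdha, the flavoprotein subunit of succinate dehydrogenase, stood at 530.5 ± 45.6 CPM in LKO and 437 ± 85.2 CPM in Flox (0.28 ± 0.14). Sucnr1, the cell surface receptor of succinate, had 80.8, 51.6, 64.2, 58.0 and 53.6 CPM in LKO, and 56.6, 9.77, 10.7, 20.1 and 68.5 CPM in Flox, a log2 fold change of 0.89 ± 0.54 (adjusted p = 0.671 by edgeR). It was low in Flox 2, 3 and 4, where the succinate carrier Slc13a3 was highest. The list of metabolite receptors and N-acetylaspartate enzymes that holds Sucnr1 had 5 of 10 genes tested and 0 passing, with a median of 0.23.

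Enzymes that draw on cytosolic citrate and acetyl-CoA also passed in 0 of 13 cases, with a median log2 fold change of 0.45. Acly, which splits citrate into acetyl-CoA and oxaloacetate, had 707, 490.5, 523, 575 and 785 CPM in LKO columns 1 to 5, against 475, 167, 85.1, 474 and 813 CPM in Flox libraries 1 to 5. Flox 2 and 3 were the low ones. Fasn, fatty acid synthase, was lowest in the same libraries, at 548.5 and 213 CPM, beside 1409 to 3131 CPM in LKO. Flox 2 and 3, which had the most Slc13a5, the carrier that brings citrate in, thus had the least Acly and Fasn transcript. Flox 4, with 6.82 CPM of Slc13a5, had 474 CPM of Acly, below every LKO library but close to Flox 1. Summed over the list, Flox 4 had 11240 CPM, beside 14820 to 28490 CPM in LKO. Most of that sum was the single gene Scd1, at 6670 CPM in Flox 4 and 9908 to 21610 CPM in LKO. Fasn in Flox 4, at 1670 CPM, lay within the LKO range.

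**Figure D5:**
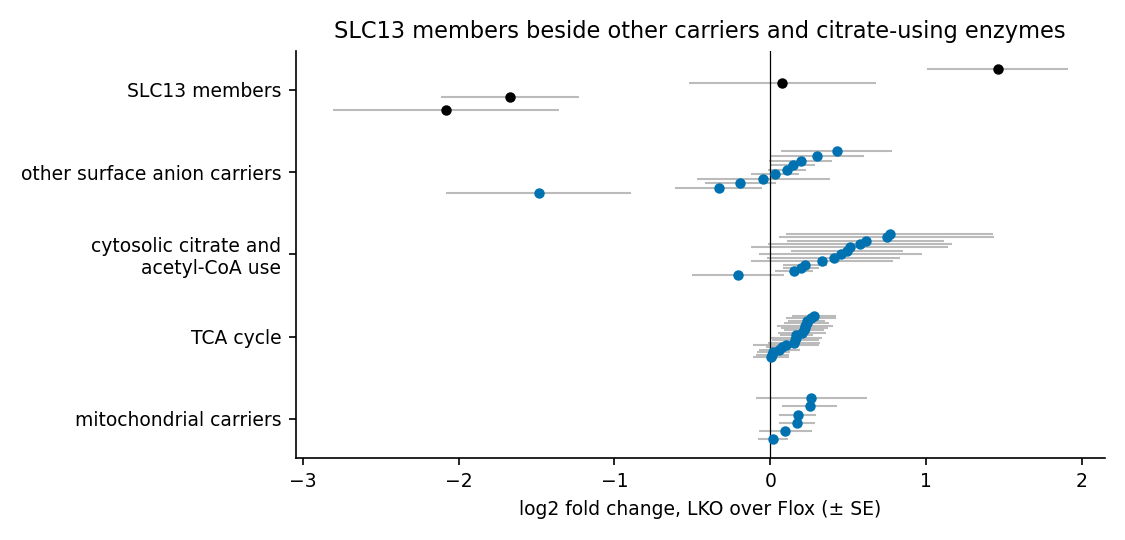
Log2 fold change, LKO over Flox, with SE for the SLC13 members (black, top) and for every tested gene of 4 related lists (blue). Medians are 0.07 for other surface anion carriers, 0.45 for cytosolic citrate and acetyl-CoA use, 0.17 for the TCA cycle and 0.17 for mitochondrial carriers, and none of the blue genes passed the test.

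Of 10 factors known or reported to act on Slc13a5 or on hepatocyte metabolism, 0 passed in either direction and the median log2 fold change was 0.07. Ahr, the dioxin receptor, which activates Slc13a5 in rat hepatocytes, had 17.2 to 24.99 CPM in LKO and 25.8 to 43.6 CPM in Flox (log2 fold change -0.64 ± 0.15, adjusted p = 0.652 by edgeR). Its highest library was Flox 3, which also had the most Slc13a5 and Slc13a3. Hnf4a, a master regulator of hepatocyte genes, stood at 546 ± 48.6 CPM in LKO and 591 ± 109 CPM in Flox. Among 6 genes of the sodium gradient that drives SLC13 transport and of its scaffolds, 0 passed (median -0.01). Atp1b1, a beta subunit of the sodium pump, had 50.4 to 65.3 CPM in LKO, and 36.9, 27.4, 16.7, 51.3 and 51.0 CPM in Flox libraries 1 to 5. At an unadjusted p under 0.05, edgeR counted 1 of the surface carriers, 0 of the mitochondrial carriers, TCA cycle, cytosolic citrate and metabolite receptor lists, and 1 each of the regulators and the sodium list. Of all tested genes 7.51% passed at that level.

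Of 13 genes that respond to fasting and feeding, 0 passed edgeR's quasi-likelihood test. Their median log2 fold change was 0.22, with 3 genes at an unadjusted p under 0.05, where 7.51% of all tested genes passed. DESeq2 on the filtered genes called Angptl8 (adjusted p = 0.0493), and DESeq2 on all genes with a count called 0 genes. Angptl8, which insulin and feeding induce, stood at 96.7 ± 17.1 CPM in LKO and 52.5 ± 16.4 CPM in Flox, and Pck1, the gluconeogenic enzyme, at 1383 ± 286 CPM in LKO and 1910 ± 464 CPM in Flox. Igfbp1, a fasting-induced binding protein of insulin-like growth factors, had 11.3 to 18.4 CPM in LKO and 199, 31.6, 32.4, 13.0 and 10.4 CPM in Flox libraries 1 to 5. Other genes that fasting induces lay on both sides of 0 and did not pass. Ppargc1a (log2 fold change 0.34 ± 0.26), Fgf21 (0.31 ± 0.67) and G6pc (0.10 ± 0.45) were above 0. Angptl4 (-0.49 ± 0.32), Pdk4 (-0.12 ± 0.77) and Tat (-0.04 ± 0.30) were below 0.

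All 26 acute phase genes had log2 fold changes below 0 (median -1.26). By edgeR's quasi-likelihood test 0 passed, with 19 at an unadjusted p under 0.05. DESeq2 on the filtered genes called Saa2 (adjusted p = 0.0305), and DESeq2 on all genes with a count called 0 genes. Haptoglobin (Hp) was at 4767 ± 2129 CPM in LKO and 12570 ± 9630 CPM in Flox, and Serpina3n at 356 ± 58.8 CPM in LKO and 1218 ± 1049 CPM in Flox.

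In a whole liver sample, fewer cells of a type and less RNA per cell cannot be told apart. The 11 hepatocyte markers analysed here of 12 listed summed to 143300 to 171800 CPM in LKO and 72170 to 134500 CPM in Flox, lowest in Flox 3. Such a sum rests most on the most abundant genes, and Fgb of this list is also an acute phase gene. The mean log2 CPM of these markers overlapped, at 11.86 to 12.14 in LKO and 11.42 to 11.89 in Flox. Kupffer cell markers (10 of 10) summed to 70.9 to 508 CPM in LKO and 105 to 616 CPM in Flox, with the low ends in LKO 1 and Flox 5. Markers of T and NK cells (9 of 10 tested) summed to 1.97 to 4.42 CPM in LKO and 3.85 to 11.5 CPM in Flox. Markers of the kidney tubule, where Slc13a2 and Slc13a3 are abundant, summed over 10 genes to 0.676 to 3.38 CPM in LKO and 0.480 to 2.59 CPM in Flox, with Kap and Slc22a6 at 0 in every library. Intestinal markers summed to 37.8 to 105 CPM in LKO and 24.9 to 83.4 CPM in Flox, with Sis at 0 throughout. Sinusoidal endothelial markers summed to 111 to 170 CPM in LKO and 122 to 194 CPM in Flox, and stellate and fibroblast markers to 162 to 228 CPM in LKO and 115 to 259 CPM in Flox. Cholangiocyte markers summed to 69.1 to 85.0 CPM in LKO and 71.5 to 79.9 CPM in Flox. Red cell genes summed to 463 to 902 CPM in LKO and 235 to 414 CPM in Flox. Periportal hepatocyte genes (15 tested) had a median log2 fold change of 0.44 and pericentral ones (14 tested) of -0.34, with 0 passing in either. The part of cell make-up in the SLC13 differences was not tested.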

How the data were processed

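Total liver RNA was made into 10 libraries with oligo-dT, per the labels' protocols. The deposited values are raw counts of reads per Ensembl gene, 1 column per library, with no normalization by the authors. Tools listed in the submitters' processing notes are featureCounts 1.4.6-p5, Subread, STAR 2.5.1a and bcl2fastq, with build GRCm38. Not given in the sources used here are strand use, the annotation release and how reads with several matches were treated. The LKO columns are numbered 1 to 5 and the LKO titles 6 to 10, so LKO columns were used as members of their group and are named by column.

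Of 55774 lines, 287 repeated identifiers were dropped. Genes were kept with filterByExpr, scaled by TMM and fitted with edgeR 4.0.16 (R 4.3.3, robust quasi-likelihood, no covariate), with Benjamini-Hochberg adjustment over 15894 genes and a threshold of 0.05, two-sided. Alternatives used DESeq2 1.42.0 and limma 3.58.1. Log2 CPM used a prior count of 2. A count of 0 allows up to 3 reads per library (0.0524 to 0.0704 CPM, counting error only). Gene positions and exon lengths came from GENCODE M21, matched by identifier, and upstream sequences from RefSeq, where all 4 members matched.

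The members, gene lists and tests were chosen with earlier results of these data known. Named genes were the members, Slc13a1, the 5 genes most like and the 3 most opposite to each member by centred Pearson's r (mean log2 CPM of at least 1), and within each pathway list up to 3 genes of highest level and up to 2 of smallest p. Of these, those described were a selection. Arg2, neighbouring and overlapping genes and marker sums lie outside that rule.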

Additional observations from a re-analysis of the deposited data

How the results depend on the processing

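Over 18 alternatives the log2 fold change kept its sign for Slc13a2 and Slc13a3 in 18, for Slc13a5 in 17 and for Slc13a4 in 12. Leaving out each library in turn gave 1.17 to 1.73 for Slc13a2, -1.93 to -1.31 for Slc13a3, -2.36 to -1.75 for Slc13a5 and -0.41 to 0.43 for Slc13a4, with 0 genes called each time. Without Flox 2, 3 and 4, chosen after seeing the data, Slc13a3 was at -0.59 and Slc13a5 at 0.37, with 2 Flox libraries left. DESeq2 on the filtered genes called 11 genes, and DESeq2 with its own filter, also added after seeing the data, called 0. The call of Slc13a3 was lost there, where 32926 rather than 8184 genes entered the adjustment. Its log2 fold change was -1.67 in both runs, with an SE of 0.387 on the filtered genes and 0.376 with DESeq2's own filter. The cause of the lost call was not tested. Scaling by DESeq2 size factors or by library totals, no filter and limma-voom left 0 calls, although limma-voom turned Slc13a4 to -0.13 and gave -1.40 for Slc13a5. Of the 32 likeness values, Spearman's rho moved 1 by at least 0.1 (Socs3 with Slc13a5), uncentred values 4, and leaving out Flox 2 and 3 moved 0. Slc13a4, Slc13a5 and Slc13a2 rest on as few as 8, 14 and 16 reads in a library, which limits the precision of those values. No paired analysis was made because no pairing of LKO and Flox libraries is labelled.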
